A study of Mus musculus with 18 samples.

Results

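The effect of calorie restriction (CR) on liver transcripts was compared between mice with and without SIRT1, as a diet by genotype interaction. The interaction of a gene is its CR minus ad libitum (AL) difference in SIRT1+/+ livers minus the same difference in SIRT1-/- livers, so a value below 0 belongs to a transcript that fell more, or rose less, on CR in SIRT1+/+ mice. Of 18 liver libraries in the study, 13 entered the comparison by their labelled diet and genotype. They were 3 AL SIRT1+/+, 3 CR SIRT1+/+, 4 AL SIRT1-/- and 3 CR SIRT1-/- libraries, each from the liver of a mouse. The 5 SIRT1+/- libraries (2 AL and 3 CR) entered the fit for the estimate of the spread alone. Transcripts were measured on Illumina MouseRef-8 v2 beadchips, on which the brightness of a probe reports the amount of the transcript it binds.

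All mice were C57BL/6J in the labels, went on their diet at 2 to 5 months of age and were sampled at 13 to 16 months. CR mice received 40% less food than AL mice. By the methods AL mice ate a standard chow and CR mice a fortified one, so chow and amount cannot be told apart. SIRT1-/- mice were homozygous knockouts with no cell type named for the deletion, so the comparison does not separate SIRT1 in hepatocytes from SIRT1 in the rest of the body or in development. The labels call every mouse male, while the methods give male and female.

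SIRT1 is a deacetylase that depends on NAD and acts on histones and on transcriptional regulators of liver metabolism, among them coactivators and forkhead factors of the fasting response. Restriction of food lowers insulin, and with it the transcripts of fat synthesis, and raises those of glucose production and fat use. In mouse liver a further set of transcripts differs between the sexes, since males release growth hormone in pulses that activate the transcription factor STAT5 and females release it more evenly. Males that lose these pulses lose transcripts of male liver and gain those of female liver.

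Between 10754 and 11386 of 25697 probes were detected in the 13 libraries, where detected means a detection p under 0.05 against the negative control beads. Of 16593 gene symbols on the array, 8950 were tested, those with a probe detected in at least 2 of 18 libraries. Values below are log2 signals, z-scaled within each array and put back on a log2 scale, called scaled log2 signal. The hepatocyte markers Alb, Apoa1, Ttr, Serpina1c, Pck1 and Cps1 were detected in every group, with a summed level of at least 8.69 per library. The Sirt1 probe read 1.16, 1.07 and 1.17 in AL SIRT1+/+, 1.01, 1.92 and 1.60 in CR SIRT1+/+, 0.92, 1.13, 0.89 and 1.23 in AL SIRT1-/- and 0.93, 1.68 and 1.43 in CR SIRT1-/- libraries. The genotypes overlapped on both diets, and it is not known here whether the probe falls within the deletion, so the genotype labels are not checked by it.

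The libraries carried 3 further limits. Xist, a long noncoding RNA made from the silenced X chromosome in female cells, was detected in CR SIRT1+/+ replicates 1 and 3, AL SIRT1-/- replicates 2 and 3 and CR SIRT1-/- replicates 2 and 3, and in 0 of 3 AL SIRT1+/+ libraries. Eif2s3y, a Y-linked transcript, was detected in the other 7 libraries and not in these 6. AL SIRT1-/- replicate 1 had a label in doubt, since the CR effects tabulated by the study were met from these arrays when that library was taken as AL SIRT1+/-, and mostly not as labelled. AL SIRT1-/- replicate 4 stood apart, with a mean correlation of 0.945 with its own group and neutrophil markers (S100a8 and S100a9) up to 3.79 against at most 1.69 in CR SIRT1-/- and 1.63 in AL SIRT1+/+ libraries. The labels were kept, and the calls and list counts that changed most without these libraries are given beside them. All CR libraries carry lower library numbers than all AL libraries, so that a batch in that order and diet cannot be told apart.

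In the fit of all 18 libraries as labelled, Aldh1a1 and Cyp4a12a differed between SIRT1+/+ and SIRT1-/- mice in their response to CR. Aldh1a1 oxidises retinaldehyde to retinoic acid, and Cyp4a12a is an omega-hydroxylase of fatty acids in male mouse liver. They were 2 of 8950 genes tested with limma at a Benjamini-Hochberg adjusted p under 0.05 (0.0223%), with 0 above and 2 below 0. At an unadjusted p under 0.05 there were 466 genes (5.21%), 237 above and 229 below 0, a share close to the threshold itself. The median standard error of the interaction over genes was 0.24 on the log2 scale.

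Aldh1a1 read 4.51, 4.20 and 4.37 in AL SIRT1+/+ libraries, 3.26, 3.78 and 3.12 in CR SIRT1+/+, 2.46, 2.55, 2.46 and 3.03 in AL SIRT1-/-, and 3.44, 3.12 and 3.56 in CR SIRT1-/-. All AL SIRT1+/+ libraries lay above, and all AL SIRT1-/- libraries below, every library of the CR groups, which overlapped each other. On AL it was 3.33-fold lower in SIRT1-/- than in SIRT1+/+ livers (log2 difference -1.74, standard error 0.18, limma adjusted p = 0.000369), and on CR the difference was -0.014 (standard error 0.20, adjusted p = 0.999). CR thus moved the transcript down by 0.98 in SIRT1+/+ (adjusted p = 0.0346) and up by 0.75 in SIRT1-/- livers (adjusted p = 0.0977), and the interaction was -1.72 (standard error 0.27, 95% interval -2.30 to -1.15, adjusted p = 0.0465). The 2 AL SIRT1+/- libraries, at 4.38 and 4.44, lay with AL SIRT1+/+. In the 7 libraries without Xist the order was the same, with 3.78 in CR SIRT1+/+, 2.46 and 3.03 in AL SIRT1-/- and 3.44 in CR SIRT1-/- beside the 3 AL SIRT1+/+ libraries, and the interaction was -1.28 (adjusted p = 0.421).

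Cyp4a12a read 7.27, 6.64 and 6.94 in AL SIRT1+/+ libraries and was not detected in any other of the 13. Its signals there were -1.03, -0.63 and -1.34 in CR SIRT1+/+, -0.81, -1.17, -1.24 and -1.04 in AL SIRT1-/-, and -0.93, -1.06 and -1.18 in CR SIRT1-/- libraries. It was at least 188-fold lower in CR SIRT1+/+ and in AL SIRT1-/- than in AL SIRT1+/+ livers, where the bound sets the mean of AL SIRT1+/+ against the dimmest probe detected on each array of the other group. On CR neither genotype had a measurable level, and the interaction had an adjusted p of 0.0406. In the other 3 groups it was undetected in libraries with Xist and in the 4 without, CR SIRT1+/+ replicate 2, AL SIRT1-/- replicates 1 and 4 and CR SIRT1-/- replicate 1. The SIRT1+/- libraries read 7.01 and 7.39 on AL and 3.92, -1.07 and 3.63 on CR. The one at -1.07, CR SIRT1+/- replicate 2, was the only SIRT1+/- library with Xist detected, and the part of sex was not tested. AL SIRT1-/- replicate 1, the library of doubtful label, read -0.81 and so lay with the SIRT1-/- libraries for this gene, as it did for Aldh1a1.

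The calls depended on single libraries and on how the spread was estimated. Leaving out a single library left 0 genes called in most cases. In a fit of these 13 libraries alone, without the SIRT1+/- groups, 16 genes were called (1 above and 15 below 0), and the adjusted p was 0.0284 for Aldh1a1 and 9.28e-09 for Cyp4a12a. When AL SIRT1-/- replicate 1 was moved to the AL SIRT1+/- group, limma called 0 genes. The interaction of Aldh1a1 was then -1.67 (adjusted p = 0.608), and the adjusted p of Cyp4a12a was 0.574. AL SIRT1+/- would then hold Aldh1a1 levels of 4.38, 4.44 and 2.46 and Cyp4a12a levels of 7.01, 7.39 and -0.81. With that library left out instead, the adjusted p was 0.0722 and 0.0514.

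Because the interaction equals the SIRT1-/- minus SIRT1+/+ difference on AL minus that on CR, each gene's interaction was split into an AL and a CR part. The AL part was the larger for both called genes. Cyp4a12a was undetected in both CR groups, so its CR part could show no difference. The AL counts below also hold Cyp4a12b, Elovl3 and Fitm1, likewise undetected in both CR groups. Of the 466 genes at an unadjusted p under 0.05, the genotype difference passed that threshold on AL alone in 215 (46.1%), on CR alone in 117 (25.1%), on both diets in 14 and on neither in 120. Over all 8950 genes the same shares were 6.09% and 3.42%, so AL differences were also more frequent in the background, where 4 SIRT1-/- libraries entered on AL and 3 on CR. The 466 were chosen by the interaction, which is made of both parts, so shares above the background follow from that choice. These counts by side are a description and no test. The AL part was larger than the CR part in 58.4% of the 466, against 51.0% of all genes, with median sizes of 0.42 and 0.33. Of the 126 genes at an unadjusted p under 0.01, 82 (65.1%) lay on AL, 30 on CR and 14 on both. Of the 229 genes below 0, 122 lay on AL and 52 on CR. Of the 237 above 0, 93 lay on AL and 65 on CR. The order of the sides was not stable against the choice of libraries, since 213 lay on AL and 298 on CR without CR SIRT1+/+ replicate 3. It also turned in the libraries without Xist, where the CR genotypes kept a single library each. That setting was applied to this count after seeing the data. In every other setting tried for this count more genes lay on AL than on CR.

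**Figure D1:**
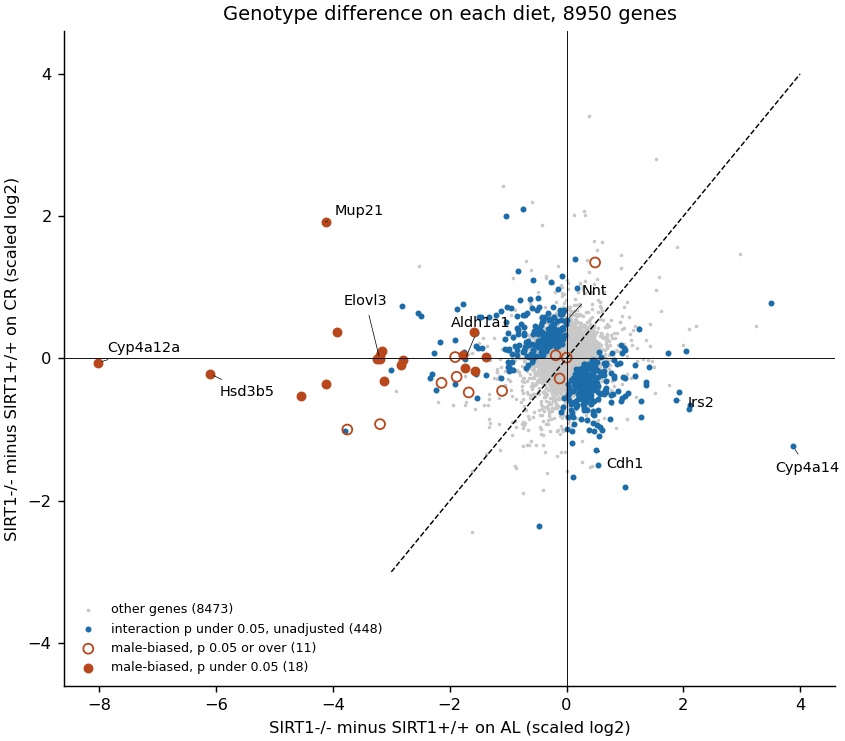
SIRT1-/- minus SIRT1+/+ difference of 8950 genes on AL (horizontal axis) and on CR (vertical axis), in scaled log2 units, with the dashed line marking equal differences, that is no interaction. Male-biased liver genes (orange) spread along the horizontal axis, with Cyp4a12a at -8.02 on AL and -0.059 on CR from its measured signals, while Nnt lies on the vertical axis at 0.54 on CR. Open orange circles are male-biased genes that did not pass an unadjusted p of 0.05, and blue points are the other genes that did.

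On CR, limma called 0 genes between the genotypes (0%, with 351 at an unadjusted p under 0.05), against 34 on AL (0.38%), 7 higher (0.0782%) and 27 lower (0.302%) in SIRT1-/- livers, with 590 at an unadjusted p under 0.05 (6.59%, 3.09% higher and 3.50% lower). CR against AL was called in 59 genes in SIRT1+/+ livers (0.659%, 24 or 0.268% higher and 35 or 0.391% lower) and in 13 in SIRT1-/- livers (0.145%), all 13 higher. These counts rested on single libraries. Without AL SIRT1-/- replicate 1, of doubtful label, 59 genes were called in SIRT1-/- livers (44 higher and 15 lower), without CR SIRT1+/+ replicate 1 there were 48, and without CR SIRT1-/- replicate 3 there were 0. In SIRT1+/+ livers the count lay between 10 without AL SIRT1+/+ replicate 1 and 108 without AL SIRT1-/- replicate 4, and array quality weights gave 228 in SIRT1+/+ and 83 in SIRT1-/- livers (60 higher and 23 lower). A gene called on AL and not on CR is not by this shown to differ between diets. Groups were also compared by whether their libraries overlapped, with no fit. AL SIRT1+/+ libraries lay all above or all below every library of the other 3 groups in 223 genes (2.49%, 117 or 1.31% above and 106 or 1.18% below). CR SIRT1-/- stood apart in 122 (0.816% above and 0.547% below), CR SIRT1+/+ in 64 (0.458% and 0.257%) and AL SIRT1-/- in 58 (0.369% and 0.279%), the last with 4 libraries, for which such a separation is harder to reach. Of the 466 genes, 106 belonged to AL SIRT1+/+ and 38 to CR SIRT1-/-, while CR SIRT1+/+ had 18 and AL SIRT1-/- had 16. With median centring in place of z-scaling AL SIRT1+/+ stood above in 72 and below in 104 genes and CR SIRT1-/- above in 84 and below in 20, so that CR SIRT1-/- then led among genes above. The order also turned when a group lost a library, which eases its own separation by construction. Without its replicate 1 CR SIRT1-/- stood above in 279 and below in 118 genes, against 129 and 123 for AL SIRT1+/+, and without its replicate 3 CR SIRT1+/+ stood above in 195 and below in 208, against 132 and 110. AL SIRT1+/+ was also the group without Xist in any library, and the part of sex in these counts was not tested.

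**Figure D2:**
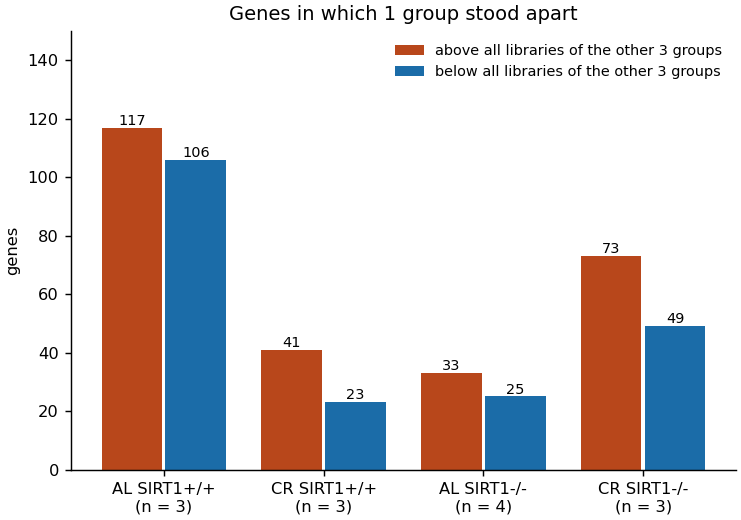
Number of genes, of 8950 tested, in which every library of a group lay above (orange) or below (blue) every library of the other 3 groups. AL SIRT1+/+ stood apart in 117 and 106 genes, more than any other group under z-scaling.

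Genes of male liver had lower interactions than the rest of the genes, and their genotype difference lay on AL. Their list, like those below, was chosen with earlier results of these data known, so its counts are a description. Of 29 members measured of 40 listed, 18 were below 0 at an unadjusted p under 0.05 and 0 above (2.56% and 2.65% of all genes), with a median interaction of -2.27 against 0.014 over all genes. On AL the median SIRT1-/- minus SIRT1+/+ difference was -2.80, with 13 of 29 called lower (0.302% of all genes) and 0 higher. The 13 became 7 without AL SIRT1+/+ replicate 1 and 3 with AL SIRT1-/- replicate 1 moved to AL SIRT1+/-. On CR 4 of 29 members, Cyp4a12a, Cyp4a12b, Elovl3 and Cyp2u1, were undetected in both genotypes and so could show no difference. Over the other 25 the median on CR was -0.14, and 0 passed an unadjusted p under 0.05. CR lowered 12 of 29 in SIRT1+/+ livers (0.391% of all genes called lower) and 0 in SIRT1-/- livers, where 0 of all genes were called lower, against 15 of all genes without AL SIRT1-/- replicate 1. Members undetected in a group enter these medians at their measured signals. AL SIRT1+/+ stood above all libraries of the other groups in 20 of 29 (1.31% of all genes above). In the libraries without Xist the median interaction was -1.94, where the CR genotypes kept a single library each, SIRT1+/+ replicate 2 and SIRT1-/- replicate 1. With Xist detection as a covariate 17 of 29 were below 0 with a median of -1.54. AL SIRT1+/+ was the group without Xist in any library, so sex was spread unevenly over the groups. Its part in the male-biased genes was not tested.

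Elovl3, a fatty acid elongase, read 1.89, 2.41 and 1.34 in AL SIRT1+/+ and was detected in no library of the other 3 groups, at least 5.60-fold lower in AL SIRT1-/- and in CR SIRT1+/+ livers (interaction adjusted p = 0.0558). Cyp4a12b, the near-identical paralog of Cyp4a12a, read 1.43, 1.37 and 3.06 in AL SIRT1+/+ and was likewise undetected in the other 10 libraries, at least 5.89-fold lower in the same comparisons (adjusted p = 0.0609). The probes of these paralogs may bind both transcripts. Hsd3b5, a steroid dehydrogenase of male liver, read 5.54, 4.51 and 5.42 in AL SIRT1+/+, -0.80, -0.067 and -0.50 in CR SIRT1+/+, and was undetected in all AL SIRT1-/- libraries, at least 54.2-fold lower. In CR SIRT1-/- it read -0.68, -0.60 and -0.75, detected in 1 of 3 (interaction adjusted p = 0.141).

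C6, a component of the membrane attack complex of complement, read 4.54, 4.26 and 4.12 in AL SIRT1+/+ and between 1.04 and 2.20 in the other 10 libraries, which overlapped. It was 6.98-fold lower in SIRT1-/- than SIRT1+/+ livers on AL (adjusted p = 0.00413) and 1.01-fold lower on CR (adjusted p = 0.999), with an interaction of -2.78 (standard error 0.61, adjusted p = 0.211). Serpina12, a serpin also known as vaspin, read 3.80, 2.19 and 3.28 in AL SIRT1+/+ and between -1.27 and 0.57 elsewhere (interaction -3.76, standard error 0.71, adjusted p = 0.105). Slc17a8, a vesicular glutamate transporter, read 3.82, 3.64 and 3.54 in AL SIRT1+/+, 1.68, 2.17 and 1.06 in CR SIRT1+/+, 1.16, 0.48, 0.35 and 0.64 in AL SIRT1-/- and 1.43, 2.06 and 0.92 in CR SIRT1-/-, so that the CR groups overlapped (interaction -2.84, standard error 0.56, adjusted p = 0.111). Sbspon, which codes for a matrix protein with somatomedin B and thrombospondin domains, was 2.93-fold lower in SIRT1-/- livers on AL (adjusted p = 0.00193) and 1.13-fold higher on CR (adjusted p = 0.999). Fitm1, which helps form lipid droplets, was detected in AL SIRT1+/+ libraries alone, at least 1.84-fold above AL SIRT1-/- and CR SIRT1+/+ (interaction adjusted p = 0.111). Each of these genes kept the sign of its interaction in all settings tried.

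**Figure D3:**
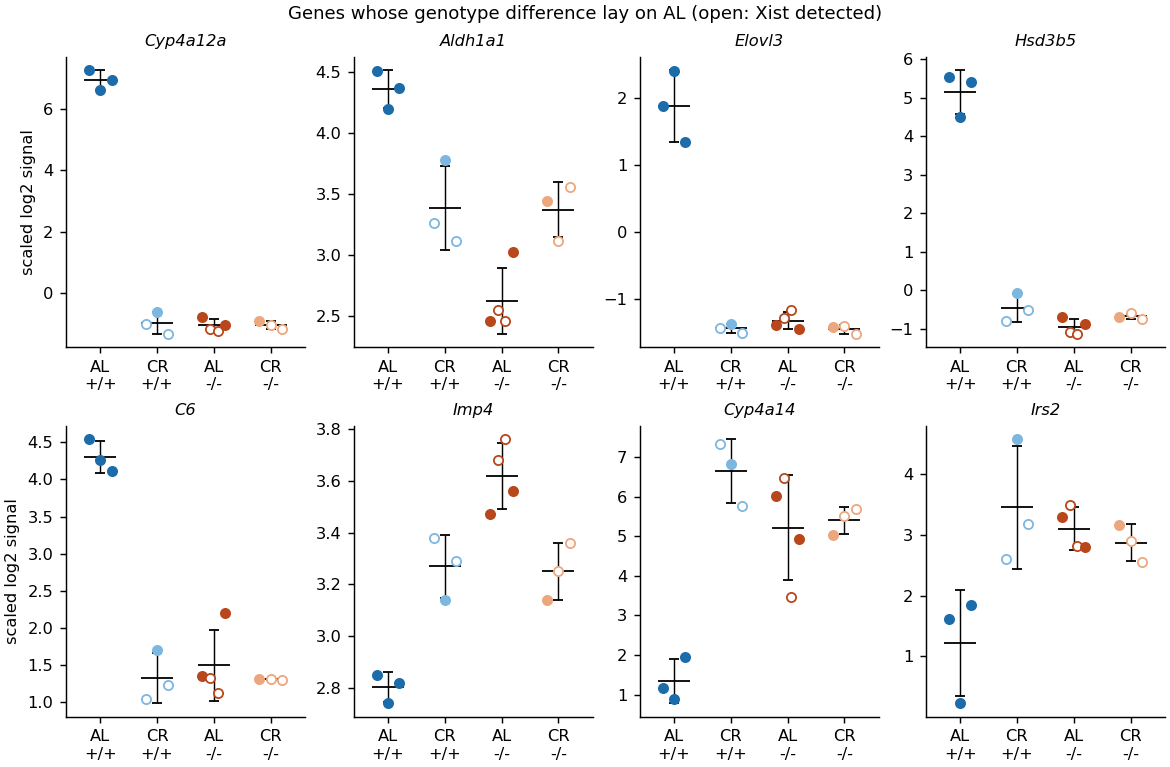
Scaled log2 signal per library in the 4 groups for 8 genes whose genotype difference lay on AL, with group mean and SD as bars and open points for libraries with Xist detected. Each AL SIRT1+/+ library lies above (Cyp4a12a, Aldh1a1, Elovl3, Hsd3b5, C6) or below (Imp4, Cyp4a14, Irs2) all others, and axes differ between panels.

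The major urinary proteins, pheromone carriers that male liver secretes, were lower by point estimate in SIRT1-/- than SIRT1+/+ livers on AL. On AL limma called the difference for Mup20 (adjusted p = 0.00616) and Mup5 (adjusted p = 0.0114). It was not called for Mup21 (adjusted p = 0.0957), Mup6 (adjusted p = 0.494) or Mup2 (adjusted p = 0.632). Mup21 read 8.0, 8.32 and 7.45 in AL SIRT1+/+, 1.74, 5.00 and 3.24 in CR SIRT1+/+, 6.46, 1.77, 4.38 and 2.57 in AL SIRT1-/-, and 6.25, 4.07 and 5.41 in CR SIRT1-/- livers (interaction -6.05, standard error 1.38, adjusted p = 0.222). Mup20 read 4.99, 4.26 and 4.72 in AL SIRT1+/+ and at most 1.04 elsewhere, undetected in CR SIRT1-/- (interaction adjusted p = 0.405), and Mup5 4.07, 3.72 and 4.50 and at most 1.39 elsewhere (-4.30, standard error 0.95, adjusted p = 0.216). Mup2 and Mup6 fell on CR in both genotypes by point estimate, Mup2 by 4.80 and 2.53 and Mup6 by 4.18 and 1.71, and none of these changes nor their interactions passed (adjusted p = 0.991 and 0.983 for the interactions). The sign of the Mup2 interaction turned in 1 of 30 settings. AL SIRT1+/+ lay above all other groups for all 5. These genes are near-identical copies, and a probe named for one may bind others.

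RefSeq promoter windows (GRCm38.p6, 250 bases before to 50 after the transcript start, written 5′ to 3′ on the gene's strand) are given for Aldh1a1, a called gene, and for Hsd3b5 and Keg1 of the male-biased list, to show the sequence at the starts of genes that stood together. Capitals mark the STAT5 motif TTCNNNGAA, which reads the same on both strands. The Aldh1a1 window is the downstream one of 2 starts listed, at chr19:20601718-20602017 on the plus strand. The Hsd3b5 window is chr3:98645485-98645784 on the minus strand and the Keg1 window chr19:12695540-12695839 on the plus strand.
Aldh1a1: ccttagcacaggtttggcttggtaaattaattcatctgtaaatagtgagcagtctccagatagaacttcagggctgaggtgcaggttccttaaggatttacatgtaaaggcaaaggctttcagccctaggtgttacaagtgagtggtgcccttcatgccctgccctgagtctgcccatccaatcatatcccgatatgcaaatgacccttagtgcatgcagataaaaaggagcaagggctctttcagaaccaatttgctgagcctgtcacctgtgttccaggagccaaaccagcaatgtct
Hsd3b5: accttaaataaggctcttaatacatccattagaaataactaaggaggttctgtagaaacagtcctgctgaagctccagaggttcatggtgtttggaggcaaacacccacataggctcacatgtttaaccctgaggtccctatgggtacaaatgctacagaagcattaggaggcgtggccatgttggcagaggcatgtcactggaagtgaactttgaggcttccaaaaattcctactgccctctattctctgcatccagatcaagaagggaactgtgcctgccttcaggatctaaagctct
Keg1: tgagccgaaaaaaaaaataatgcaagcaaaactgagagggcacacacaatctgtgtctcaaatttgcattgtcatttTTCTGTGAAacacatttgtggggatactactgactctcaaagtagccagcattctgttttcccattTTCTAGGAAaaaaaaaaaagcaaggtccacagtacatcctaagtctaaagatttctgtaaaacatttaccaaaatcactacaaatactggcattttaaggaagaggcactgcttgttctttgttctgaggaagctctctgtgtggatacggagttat
The windows of Aldh1a1 and Hsd3b5 hold 0 matches and that of Keg1, a glycine acyltransferase-like gene, holds 2. Of 22 measured male-biased genes with a window, 2 (9.09%) hold the motif, Keg1 and Bcl6, against 8.38% of the tested genes and 8.30% of all 32851 windows. Keg1 was lower in SIRT1-/- livers by 2.84 on AL (adjusted p = 0.0254) and by 0.087 on CR (adjusted p = 0.999), with an interaction of -2.76 (adjusted p = 0.541). A match is a string of letters and no measured site.

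Among genes above 0, Imp4, which acts in ribosome assembly, read 2.85, 2.74 and 2.82 in AL SIRT1+/+, 3.38, 3.14 and 3.29 in CR SIRT1+/+, 3.47, 3.68, 3.76 and 3.56 in AL SIRT1-/- and 3.14, 3.25 and 3.36 in CR SIRT1-/-. It mirrored Aldh1a1, with the AL groups at either end and the CR groups overlapping between them (interaction 0.84, standard error 0.16, adjusted p = 0.105). Cyp4a14, a fatty acid omega-hydroxylase that is higher in female liver and responds to PPAR alpha, read 1.18, 0.88 and 1.96 in AL SIRT1+/+, 7.34, 6.82 and 5.76 in CR SIRT1+/+, 6.02, 6.46, 3.47 and 4.93 in AL SIRT1-/- and 5.02, 5.50 and 5.68 in CR SIRT1-/-. It was 39.4-fold higher on CR in SIRT1+/+ (adjusted p = 0.00751) and 1.14-fold higher in SIRT1-/- livers (adjusted p = 0.934), and 14.7-fold higher in SIRT1-/- livers on AL (adjusted p = 0.0379), with an interaction of 5.12 (standard error 1.11, adjusted p = 0.211). Sigirr, an inhibitor of interleukin 1 signalling, was unlike these in that AL SIRT1-/- stood apart, at 2.02 to 2.25 against 1.41 to 1.87 in the other 9 libraries (interaction 0.75, standard error 0.17, adjusted p = 0.222). Tm6sf2, which acts in lipoprotein secretion, read 1.77 to 2.14 in AL SIRT1+/+ and 2.50 to 3.30 in the other groups (interaction 1.26, standard error 0.33, adjusted p = 0.405).

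Irs2, an adaptor of the insulin receptor that insulin represses in liver, read 1.61, 0.22 and 1.84 in AL SIRT1+/+, 2.61, 4.58 and 3.18 in CR SIRT1+/+, 3.30, 3.50, 2.82 and 2.80 in AL SIRT1-/-, and 3.17, 2.90 and 2.56 in CR SIRT1-/-. The 3 AL SIRT1+/+ libraries lay below all others, which overlapped. CR raised it 4.71-fold in SIRT1+/+ (adjusted p = 0.04), while in SIRT1-/- livers it was 1.17-fold lower (adjusted p = 0.839), and the interaction was 2.46 (standard error 0.63, 95% interval 1.12 to 3.80, adjusted p = 0.405). Of 25 measured genes of glucose and insulin metabolism, 5 were above 0 at an unadjusted p under 0.05 (2.65% of all genes) and 0 below, with a median of 0.086. Without AL SIRT1-/- replicate 1 there were 4 above and 3 below. Besides Irs2 they were Igfbp1, Igfbp2, G6pc and Pfkl. Igfbp2, a binding protein of insulin-like growth factors, was higher on AL in SIRT1-/- livers by 1.27 and lower on CR by 0.59 (interaction 1.86, adjusted p = 0.73), with AL SIRT1-/- replicate 4 at 3.14 and the others at 5.19 to 5.30. G6pc, glucose 6-phosphatase of glucose output, and Igfbp1, which insulin represses, had their larger part on CR, where they were lower in SIRT1-/- livers by 1.50 and 0.93 (interaction 2.03 and 1.46). Pck1, the other control enzyme of gluconeogenesis, had an interaction of -0.058.

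Fatty acid and triglyceride synthesis lay on AL too. Of 24 measured genes, 7 were below 0 at an unadjusted p under 0.05 (2.56% of all genes) and 0 above (2.65%), with a median interaction of -0.65. On AL 12 of 24 were lower in SIRT1-/- livers at an unadjusted p under 0.05 (3.50% of all genes) and 0 were called, with a median of -0.65. Without AL SIRT1-/- replicate 1 limma called 6 lower on AL, where 40 of all genes were called lower. With that library moved to AL SIRT1+/- it called 3, where 10 of all genes were. With array quality weights it called 5, where 71 of all genes were. Without AL SIRT1-/- replicate 4 the AL median was -0.40. On CR 1 of 24 was lower at an unadjusted p under 0.05 (2.10% of all genes), with a median of -0.089. Thrsp, a lipogenic nuclear protein, read 6.98, 6.19 and 5.67 in AL SIRT1+/+, 5.54, 3.81 and 5.54 in CR SIRT1+/+, 5.82, 2.94, 3.87 and 3.4 in AL SIRT1-/- and 5.36, 4.81 and 4.97 in CR SIRT1-/- livers. The AL groups overlapped through AL SIRT1-/- replicate 1, the library of doubtful label (interaction -2.35, standard error 0.86, adjusted p = 0.756). Me1, malic enzyme, which supplies NADPH, read 3.25, 3.23 and 3.67 in AL SIRT1+/+ and at most 2.93 in the other groups (interaction -1.15, standard error 0.45, adjusted p = 0.799). Acly and Acaca, which make the precursors of fatty acids, had interactions of -0.85 and -0.89, and Srebf1, the lipogenic transcription factor, -1.67. The count of 7 became 2 when replicate 2 of either AL SIRT1+/+ or CR SIRT1+/+ was left out, 4 without AL SIRT1-/- replicate 4 or CR SIRT1-/- replicate 1, and 3 either without CR SIRT1+/+ replicate 1 or with Xist detection as a covariate, and the median kept its sign in every setting.

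Genes of the CR side were fewer, and none of their interactions or genotype differences passed after adjustment. Cdh1, the adhesion protein E-cadherin, read 1.56, 1.36 and 1.04 in CR SIRT1+/+ and -0.23 to 0.90 in the other 10 libraries. It was 2.44-fold lower in SIRT1-/- than SIRT1+/+ livers on CR (limma unadjusted p = 0.000804, adjusted p = 0.719). On AL it was 1.42-fold higher (unadjusted p = 0.103, adjusted p = 0.852), with an interaction of 1.79 (standard error 0.42, adjusted p = 0.264). Enpp6, a choline phosphodiesterase, was detected in 2 of 3 CR SIRT1+/+ libraries, at -0.57, -0.63 and -0.13, and in 0 of the other 10 (interaction adjusted p = 0.396). Peg3, an imprinted zinc finger gene, was detected in all 3 CR SIRT1+/+ libraries, at 0.45, -0.19 and -0.48, in 2 of 4 AL SIRT1-/- and in 0 of the other 6 (adjusted p = 0.458). For these 3 genes CR SIRT1+/+ stood above all libraries of the other 3 groups. Enpp6 met the detection filter only through CR SIRT1+/+ and lay near the detection level there, so its separation could follow from the filter.

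For Nnt, the transhydrogenase that links NADH and NADPH in mitochondria, CR SIRT1-/- stood apart instead, at -0.019, -0.22 and -0.057. It was detected there in 3 of 3 libraries, in 1 of 3 CR SIRT1+/+ and in 0 of 7 AL libraries, and its CR change in SIRT1-/- livers was called (at least 1.42-fold higher, adjusted p = 0.00994), while its interaction had an adjusted p of 0.569. C57BL/6J mice are known to carry a deletion in Nnt, and where the probe lies relative to it is not known here. Of 23 measured genes of sirtuins and NAD metabolism, 4 were below 0 at an unadjusted p under 0.05 (2.56% of all genes) and 0 above (2.65%), with a median of -0.15. They were Nnt, Sirt7, Aox3 and Kynu, of which Nnt lay on CR and the other 3 on AL. The median genotype difference of the list was -0.17 on AL and 0.054 on CR. Sirt7, a nuclear sirtuin, read 4.35, 4.05 and 4.34 in AL SIRT1+/+, 3.79, 4.14 and 3.77 in CR SIRT1+/+, 4.03, 3.44, 3.93 and 3.80 in AL SIRT1-/- and 4.68, 3.87 and 4.35 in CR SIRT1-/-, with all groups in overlap except the AL pair (interaction -0.85, standard error 0.30, adjusted p = 0.737).

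The circadian clock list leaned to the CR side, with a median interaction of -0.71 over 16 genes, a median genotype difference of -0.11 on AL and 0.35 on CR, 3 higher on CR at an unadjusted p under 0.05 (1.82% of all genes), and 2 below 0 at an unadjusted p under 0.05. Nr1d2, a repressor of the clock, read 0.81, 0.46 and 1.16 in AL SIRT1+/+, 0.86, 0.95 and 1.88 in CR SIRT1+/+, 0.81, 0.28, 0.64 and 0.57 in AL SIRT1-/- and 1.71, 2.31 and 1.83 in CR SIRT1-/- (interaction -0.96, standard error 0.37, adjusted p = 0.788). Its rise on CR was called in SIRT1-/- (2.60-fold, adjusted p = 0.0436) and not in SIRT1+/+ livers (1.34-fold, adjusted p = 0.488), and both CR groups overlapped. Bhlhe40, another repressor of the clock, was 1.42-fold higher in SIRT1-/- livers on CR and 1.34-fold lower on AL (interaction -0.93, adjusted p = 0.72). Dbp and Ciart, outputs of the clock, had interactions of -3.51 and -1.77 that did not pass an unadjusted p of 0.05, and Arntl and Nfil3, which peak in the opposite phase, had interactions of 0.92 and 1.22. The hour of sampling is not given in the sources used here, and its part in these values was not tested.

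Cholesterol synthesis had the lower median genotype difference on CR, -0.75, 5 of 18 lower in SIRT1-/- livers at an unadjusted p under 0.05 (2.10% of all genes) and 0 called, against a median of -0.32 on AL. The 5 were Pmvk, Fdps, Sqle, Cyp51 and Sc5d, enzymes of the pathway, with differences on CR of -0.83, -1.53, -1.89, -1.02 and -1.07. The median interaction was 0.46 and 1 of 18 passed an unadjusted p of 0.05, Srebf2, the transcription factor of the pathway (0.69, standard error 0.28, adjusted p = 0.852). With array quality weights the side turned, with a median of -0.59 on AL and -0.50 on CR, and the median interaction was -0.078. Without AL SIRT1-/- replicate 4 the medians were -0.62 and -0.75 and that of the interaction 0.12. The 5 genes lower on CR became 11 without CR SIRT1+/+ replicate 2 and 2 without replicate 1 of that group.

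In 14 of the 466 genes both parts passed an unadjusted p of 0.05, in opposite directions. Fn3krp, a kinase that repairs glycated proteins, read 0.0022, -0.014 and -0.30 in AL SIRT1+/+, -0.85, -0.79 and -0.58 in CR SIRT1+/+, -0.75, -0.88, -0.74 and -0.41 in AL SIRT1-/- and -0.12, -0.077 and 0.088 in CR SIRT1-/-. Its level crossed over, lower on CR than on AL in SIRT1+/+ and higher in SIRT1-/- livers, with no overlap between diets in either genotype. It was undetected in all CR SIRT1+/+ libraries and at least 1.48-fold higher in CR SIRT1-/- (interaction adjusted p = 0.067). Wnt5a, a secreted signalling ligand, crossed the other way. It was detected in 3 of 3 CR SIRT1+/+ and 4 of 4 AL SIRT1-/- libraries and in 0 of the other 6, at 0.32, -0.18 and -0.31, and -0.61, -0.26, -0.38 and 0.22 (interaction adjusted p = 0.141). Rangrf, a guanine nucleotide release factor, had parts of 0.37 on AL and -0.38 on CR (interaction 0.75, adjusted p = 0.465).

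**Figure D4:**
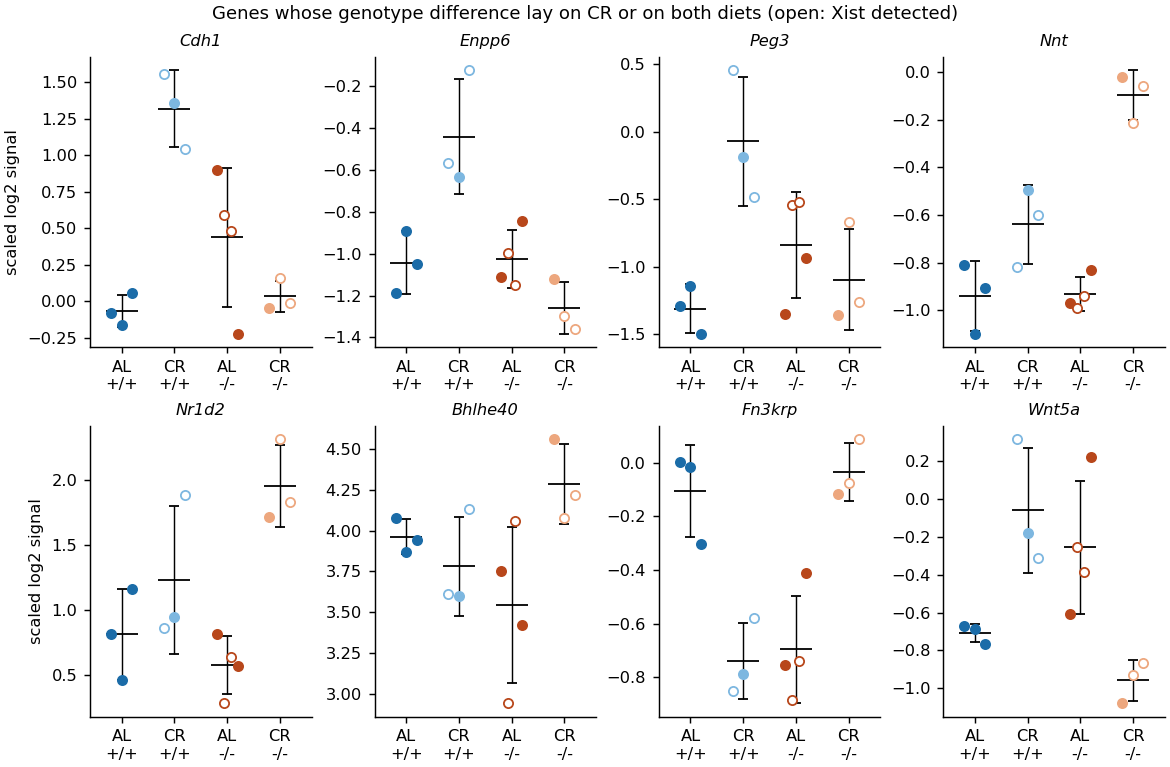
Scaled log2 signal per library in the 4 groups for genes whose genotype difference lay on CR (Cdh1, Enpp6, Peg3, Nnt, Nr1d2, Bhlhe40) or on both diets (Fn3krp, Wnt5a), with group mean and SD as bars and open points for libraries with Xist detected. CR SIRT1+/+ lies above the rest for Cdh1, Enpp6 and Peg3 and CR SIRT1-/- for Nnt, and axes differ between panels.

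In the other gene lists counts at an unadjusted p under 0.05 are read against 2.65% of all genes above 0 and 2.56% below. Female-biased genes had 4 of 23 above 0 and 1 below (median 0.44, with 0.75 on AL and -0.18 on CR), Cyp4a14, Cyp17a1, Sult3a1 and Cyp39a1 above and Gstp2 below. Among 12 genes of growth hormone signalling, Ghr, the receptor itself, was below 0 (interaction -0.86, standard error 0.27, adjusted p = 0.651), at 6.13, 6.25 and 5.90 in AL SIRT1+/+ against 5.26, 5.51, 5.76 and 4.92 in AL SIRT1-/-, while its downstream target Igf1 had an interaction of -0.062. Retinoid metabolism had 2 of 25 below 0, Aldh1a1 and Adh4, an alcohol dehydrogenase that acts on retinol, which read 5.23, 4.96 and 4.98 in AL SIRT1+/+ and at most 4.63 in the other groups (interaction -1.82, standard error 0.41, adjusted p = 0.222), with a list median of -0.044. Acute phase genes had a median interaction of 0.64 with 1 of 23 above 0, and 0.23 without AL SIRT1-/- replicate 4, the library with the high neutrophil markers, whose part in this value was not tested. Oxidative phosphorylation had 0 of 30 in either direction with a median of -0.013. Fatty acid oxidation and ketogenesis had 1 of 22 above 0 (Acadl, a dehydrogenase of long-chain acyl-CoA, interaction 0.81, adjusted p = 0.756) with a median of 0.043.

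**Figure D5:**
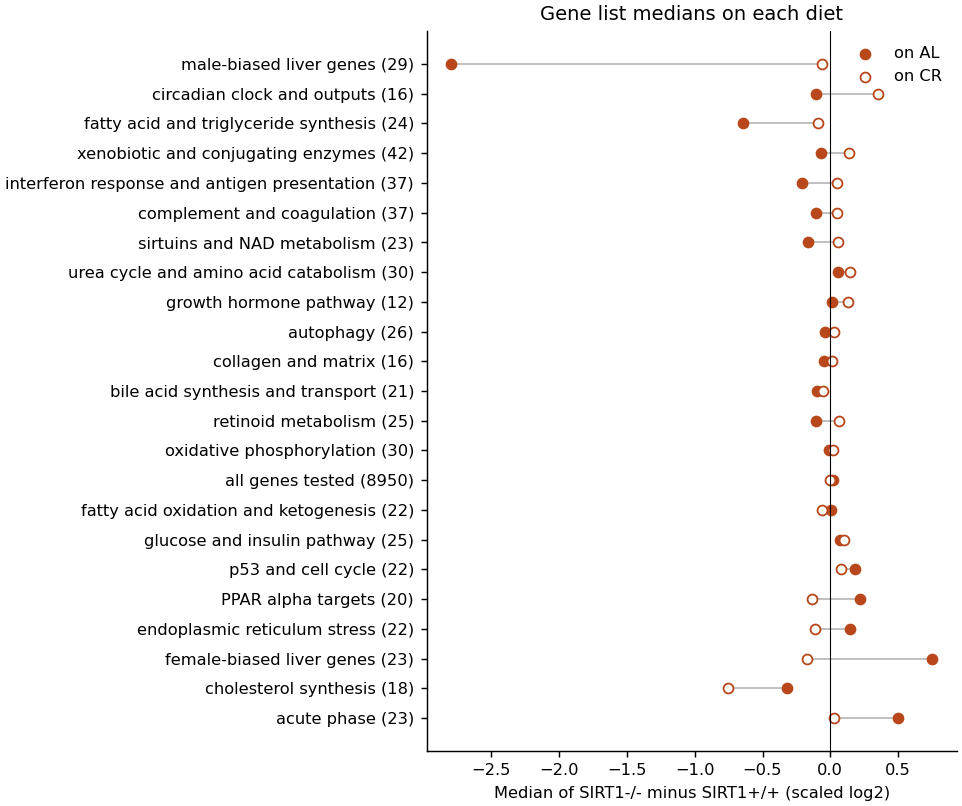
Median SIRT1-/- minus SIRT1+/+ difference over the measured genes of each list on AL (filled) and on CR (open), in scaled log2 units, ordered by the median interaction, with the number of genes in parentheses. Male-biased genes lie at -2.80 on AL, while their point on CR includes 4 genes undetected in both CR groups. Fatty acid synthesis lies at -0.65 and -0.089, while cholesterol synthesis is lower on CR (-0.75) than on AL (-0.32).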

How the data were processed

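Liver RNA of 18 mice was hybridised to 1-colour Illumina MouseRef-8 v2 arrays. The deposited table holds, per the file headers, a non-normalized intensity and a detection p-value per probe from BeadStudio 3.4.0, and the authors' second table holds the z score of the log2 intensity within each array, which the intensities gave back within 5e-10. No batch correction is given in the sources used here. Of 25697 probes 12816 were kept (detection p under 0.05 in at least 2 of 18 libraries), and 762 of them have no symbol. Log2 intensities were z-scaled per array and multiplied by the mean SD of 1.8378, and a gene was read from its probe of highest mean, giving 8950 genes. limma 3.58.1 (R 4.3.3) fitted all 6 groups, with eBayes and Benjamini-Hochberg adjustment over all genes. Tables were made in Python 3.11.15 with numpy 2.4.6 and pandas 2.3.3, and figures with matplotlib 3.10.9. The number of arrays limits the precision. On simulated data for this interaction in 8950 genes, 43 of 100 genes changed by 1 log2 unit were called. So were 92 of 100 changed by 2, and 3 unchanged genes. Both sets were changed at once, in AL SIRT1+/+ alone, with normally distributed noise. With fewer genes changed the Benjamini-Hochberg threshold is stricter, so these shares do not carry over to the real data, where 2 genes were called. A fold given as a bound sets one group's mean against the mean over the other group's arrays of the higher of the lowest signal among detected probes and the gene's own signal.

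Members and gene lists were chosen with earlier results of these data known. Named genes are those called, the 12 of smallest interaction p in each direction, Sirt1, Irs2 and the Mup symbols, the 2 members of smallest p of each list with a member at an unadjusted p under 0.05, and Xist and Y-linked transcripts. Other list members in the text, such as Keg1, Dbp or Fdps, were chosen after their values were seen. Replicates are mice by label. Of 213 genes in the study's table of CR effects matched by symbol, 198 in SIRT1+/+ but 10 in SIRT1+/- and 8 in SIRT1-/- were met within 0.02 as labelled, against 198, 197 and 199 with AL SIRT1-/- replicate 1 counted as AL SIRT1+/-. Groups followed the labels. Alternatives covered background correction, scaling, filters, probe choice, groups fitted, array weights, replicate block and leaving out each library. Promoter windows are from RefSeq, GRCm38.p6.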

Additional observations from a re-analysis of the deposited data

Results flagged for a closer look

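In AL SIRT1-/-, the group of 4 libraries, 5 of 68 named genes had a library far from the other 3, where chance gives about 1 in 20. Serpina12 was highest in replicate 2 at -0.459, against -1.15 in the next library. Mup6 was lowest in replicate 3 at 1.27, with the next at 4.76. Sult3a1, a sulfotransferase of female liver, was highest in replicate 4 at -0.395, with the next at -1.13. Igfbp2 was lowest in replicate 4 at 3.14, with the next at 5.19. Slc51b, a bile acid exporter subunit, was lowest in replicate 3 at -0.116, with the next at 0.365.

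The CR effect differed between SIRT1+/+ and SIRT1-/- livers by limma for Aldh1a1 (-1.72, adjusted p = 0.0465) and for Cyp4a12a (-7.96 between measured signals, adjusted p = 0.0406). The latter is no size, since Cyp4a12a was undetected in 3 of the 4 groups.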

How the results depend on the processing

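The interactions of Aldh1a1 and Cyp4a12a kept their sign in every setting, with adjusted p of 0.0182 to 0.608 and 2.66e-10 to 0.574. Of named genes, Eif2s3y, Uty, Sirt1 and Mup2 changed sign in some. The 2 interaction calls became 5 with neqc, 5 with quantile normalization, 4 at a detection p under 0.01 and 16 in the 4 groups alone. They became 0 with median centring, with no filter on dim probes, with every probe tested and with AL SIRT1-/- replicate 1 counted as AL SIRT1+/-. Leaving out each library gave 0 in most cases and up to 13, the highest without CR SIRT1+/- replicate 2, a library with Xist detected. Without AL SIRT1-/- replicate 1 the 1 gene called was Sbspon. The 466 genes at an unadjusted p under 0.05 became 729 with no filter, 743 without the Xist libraries and 386 to 686 leaving out each library. The 34 calls on AL became 95 with array weights, 20 with Xist as a covariate, 11 with the changed label and 15 to 46 leaving out each library. The 0 calls on CR became 0 to 2 leaving out each library. Without the Xist libraries the CR genotypes kept a single library each, so counts of genes from that setting are not given. Of the male-biased genes, 16 to 20 of 29 lay below 0 leaving out each library, and of the fatty acid synthesis genes 3 with Xist as a covariate and 2 to 9 leaving out each library. Of the genes at an unadjusted p under 0.05 in each fit, 31.0% to 51.1% lay on AL leaving out each library. AL SIRT1+/+ stood apart in 230 to 623 genes leaving out each library, the highest without its own replicate 3, where fewer libraries make a separation easier by construction.

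Libraries of the same replicate number had correlations of -0.18 to 0.276 between their deviations from the group means. Libraries of different numbers were not compared, so whether the number pairs the samples was not tested. With the number as a replicate block, 0 interactions were called (adjusted p = 0.074 for Aldh1a1 and 0.0801 for Cyp4a12a), and 4 fatty acid synthesis genes lay below 0. For the lists and sides, most settings, the libraries without Xist and the changed label among them, were chosen after seeing the data. With 3 or 4 arrays a group, differences near the detection level were not measurable in size. The cause of these changes was not tested.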

Other observations

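Among lists not described above, where 2.65% of all genes lay above 0 and 2.56% below, complement and coagulation had 2 of 37 genes below 0 for the interaction at an unadjusted p under 0.05, C6 and C9, the latter also a part of the membrane attack complex (-2.56 for C9, median -0.17). Interferon response and antigen presentation had 2 of 37 below 0, Igtp and H2-Q7, with a median difference of -0.21 on AL and 0.047 on CR. Xenobiotic and conjugating enzymes had 3 of 42 above 0 (Cyp2c39, Cyp3a11 and Fmo4) and 5 below (Cyp1a2, Gstm6, Ugt2b1, Gclc and Fmo5). Endoplasmic reticulum stress genes had Dnajc3, a chaperone cofactor, above 0 at 1.23 and Derl2, which acts in the export of misfolded proteins, below at -0.53. None of these passed adjustment.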
